A study of Mus musculus with 35 samples.

Results

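The 8 genes described here, Col6a1, Col6a2, Col6a3, Col8a1, Col8a2, Col12a1, Col14a1 and Col16a1, encode chains of collagens VI, VIII, XII, XIV and XVI. They were taken by gene symbol, whatever their values, and are 8 of the 22830 genes in each of 2 count tables. RNA was sequenced from mouse skin wounds in 35 libraries that form 8 groups. All mice were B6, 8 to 12 weeks old, of both sexes, homozygous for a floxed Col5a1 allele and given tamoxifen around the time of wounding. Col5a1CKO mice also carried Col1a2CreERT, a Cre recombinase driven by a collagen I enhancer that is active in fibroblasts and activated by tamoxifen, so that deletion is directed at fibroblasts. Whether other wound cells kept the gene was not measured here. Cre-negative littermates with the same floxed alleles are the animals called WT. At day 14 after wounding there were 7 WT wounds, 7 Col5a1CKO wounds and 3 Col5a1CKO wounds that had received WT fibroblasts by injection into the skin on day 3, and day 19 gave 3 wounds of each genotype. The paper describes day 14 groups of 7 WT and 7 Col5a1CKO wounds as given vehicle, and PBS as its control for fibroblasts. The titles of these libraries name no vehicle. A separate table held 4 WT wounds with vehicle, 4 Col5a1CKO wounds with vehicle and 4 Col5a1CKO wounds with cilengitide, an inhibitor of alpha v integrins given at 20 mg/kg; the study design places them at day 14. A further label of the 3 day 19 Col5a1CKO samples names WT fibroblasts, against their titles and column headers, which were followed. The tissue was a 6 mm punch from the wound centre, so every value is of mixed cells, and fewer cells of a type cannot be told apart from less RNA per cell. The labels mark the libraries as separate samples and do not say that each came from another animal, so the p-values measure the spread between these samples.

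Collagens of these types do not build the thick fibrils of skin, which are made of collagens I, III and V. Collagen VI is assembled inside the cell from alpha 1, alpha 2 and alpha 3 chains into tetramers that form beaded microfilaments around cells and between fibrils. Collagen VIII is a short-chain, network-forming collagen made of alpha 1 and alpha 2 chains. Collagens XII and XIV are FACITs, collagens with interrupted triple helices that bind the surface of collagen I fibrils, and collagen XVI is a related FACIT found at fibrils and near basement membranes. Fibroblasts are a main source of most of these chains in dermis and in wounds.

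On the NCBI37 mouse assembly, with GENCODE gene positions, Col6a1 (RefSeq NM_009933, chr10:76171537-76188913) and Col6a2 (NM_146007, chr10:76058507-76086375) lie on the minus strand 85161 bases apart. Col6a3 (NM_001243008, chr1:92663435-92740529), Col8a1 (NM_007739, chr16:57624371-57754850) and Col12a1 (NM_007730, chr9:79446798-79566638) are also on the minus strand. Col8a2 (NM_199473, chr4:125964037-125991574), Col16a1 (NM_028266, chr4:129725084-129776527) and Col14a1 (NM_181277, chr15:55139305-55352358) are on the plus strand. The 250 bases before the first annotated base are shown for the neighbours Col6a1 and Col6a2, whose levels moved together. They are written 5′ to 3′ on the gene's strand (chr10:76188914-76189163 and chr10:76086376-76086625), and capitals mark a GC box (GGGCGG on either strand).
Col6a1: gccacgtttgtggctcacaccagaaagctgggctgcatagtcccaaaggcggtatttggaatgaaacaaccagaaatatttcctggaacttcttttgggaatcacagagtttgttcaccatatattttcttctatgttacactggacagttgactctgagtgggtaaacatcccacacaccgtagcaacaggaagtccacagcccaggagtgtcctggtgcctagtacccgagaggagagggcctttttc
Col6a2: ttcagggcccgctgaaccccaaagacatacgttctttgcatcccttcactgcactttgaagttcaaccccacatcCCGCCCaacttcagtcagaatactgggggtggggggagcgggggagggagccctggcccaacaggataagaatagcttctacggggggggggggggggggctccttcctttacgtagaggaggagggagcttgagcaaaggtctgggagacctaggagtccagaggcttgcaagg
The Col6a1 window was 48% G and C and held no GC box, whereas that of Col6a2 was 59.2% G and C, with a GC box that began 175 bases before the start. Over the 7 members whose windows were read, a GC box was present in 5, all but those of Col6a1 and Col6a3, against 32.7% of 32851 RefSeq promoter windows of the same length. A TATAAA box was found in the Col14a1 window alone (12.4% of RefSeq windows), a CCAAT box in those of Col14a1 and Col16a1 (33.8%), and an AP-1 site (TGANTCA) in none (6.75%), with both strands searched and overlapping matches counted. These matches describe the letters and no binding was measured. RefSeq windows matched 6 of these 7 members, and that of Col14a1 was placed by GENCODE alone.

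Totals were 15043531 to 35700325 counts per library in the day 14 and 19 table and 51211600 to 68266760 in the cilengitide table. In the first of these, libraries parted into 2 sets by the level of GC-rich genes relative to GC-poor ones; the gap between the sets was 1.54 (log2) and the next widest gap 0.39. The lower set held 4 WT (a to d) and 5 Col5a1CKO (a to e) wounds of day 14, and the upper set held the other day 14 libraries, all wounds with WT fibroblasts and all of day 19. In the upper set at day 14 the 3 WT wounds had Y-linked RNA and the 2 Col5a1CKO wounds had Xist, so sex and genotype cannot be told apart there. In the lower set WT replicates a and b and Col5a1CKO replicates a to d had Y-linked RNA. WT replicates c and d and Col5a1CKO replicate e had Xist, so sex and genotype were partly mixed there as well. The deleted gene, Col5a1, lay between 346.6 and 2385.9 CPM (counts scaled to library size with TMM factors) in day 14 WT wounds and between 170.0 and 663.3 in those of Col5a1CKO, which differed by -1.43 on the log2 scale (standard error 0.49) and did not pass the test (edgeR adjusted p = 0.0757). Set against Col1a1, the main chain of collagen I, the groups parted: there were 12.7 to 16.3 Col5a1 counts per 100 Col1a1 counts in WT wounds and 1.45 to 4.65 in Col5a1CKO wounds. The fibroblast markers (Pdgfra, Lum, Dcn, Dpt, Fap, Thy1 and Col1a2) were above 0 in every group, and their summed level ran between 2372.6 and 31068.8 CPM for WT and between 9389.9 and 41547.8 CPM for Col5a1CKO at day 14.

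Levels were compared between genes per transcript length, as RPKM (CPM per kb), in the table that gives lengths. In day 14 WT wounds the medians were 171.6 RPKM for Col6a1, 170.2 for Col6a2 and 107.9 for Col6a3. Those of the FACIT chains were 45.7 for Col12a1, 42.4 for Col14a1 and 37.4 for Col16a1, and those of collagen VIII were 22.5 for Col8a1 and 2.27 for Col8a2. The ranges over the 7 wounds of neighbouring genes in this order overlapped, except that Col8a2 reached 3.49 RPKM and Col8a1 began at 3.74. In day 14 Col5a1CKO wounds the median of Col12a1 was 407.7 RPKM, above that of Col6a3 (218.3) and close to those of Col6a1 (508.9) and Col6a2 (438.3), with overlapping ranges. The collagen VIII chain Col8a2 stayed the lowest of the 8 in both genotypes, with a median of 2.72 RPKM in Col5a1CKO wounds.

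**Figure D1:**
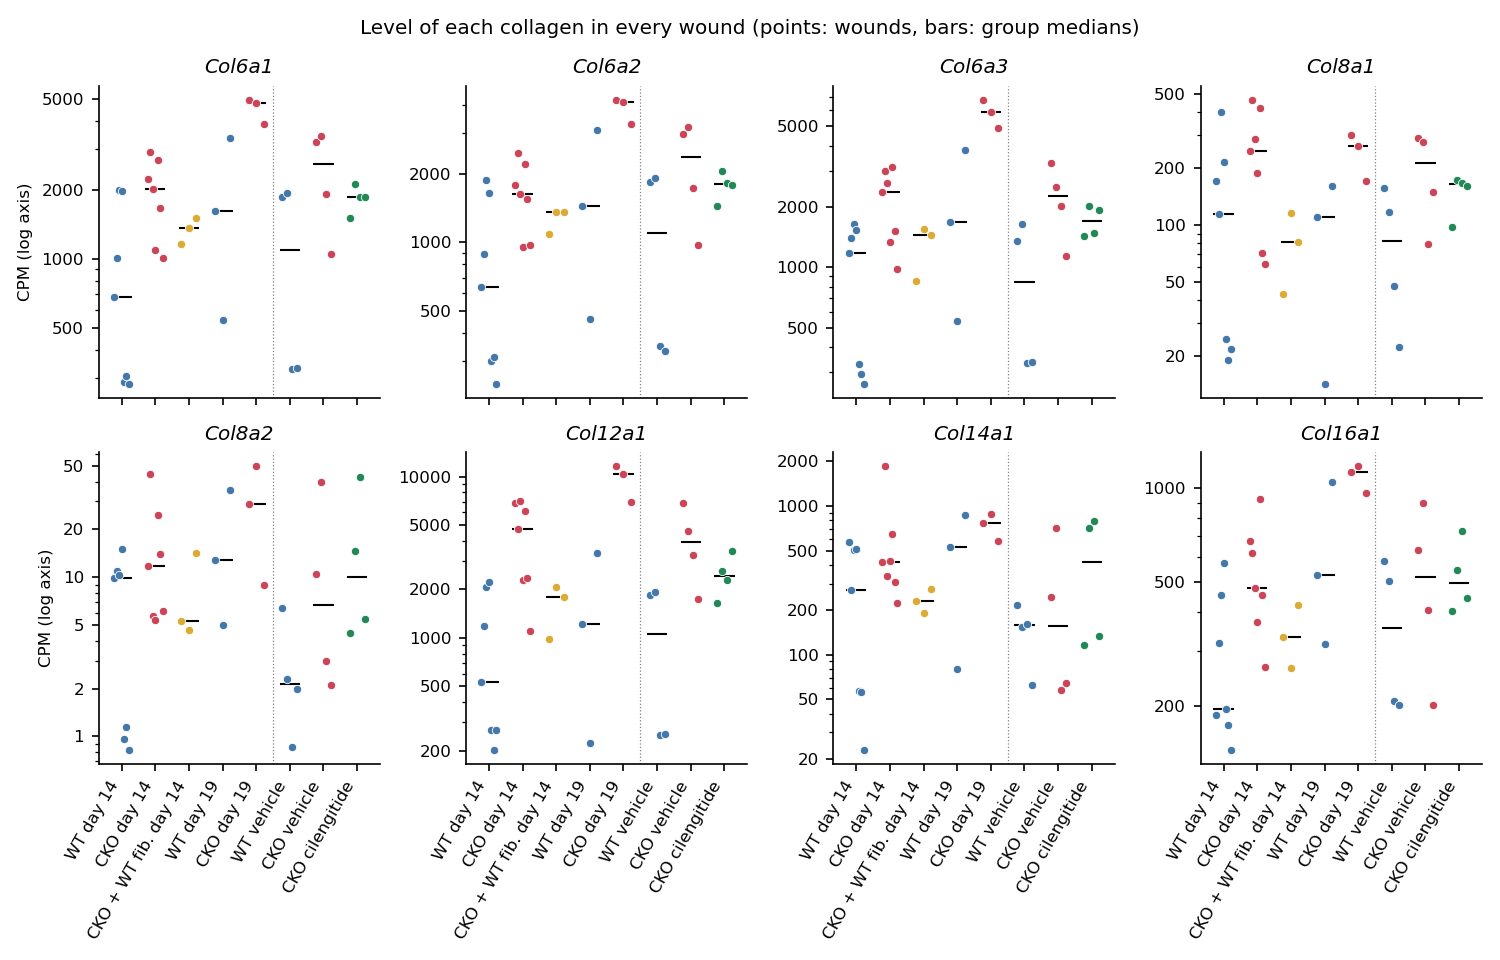
Level of each collagen gene in every wound, as CPM on a log axis that differs between panels, with points for wounds and bars for group medians; the dotted line parts the tables, which were normalised separately. Col12a1 lay above the highest WT wound in 6 of 7 day 14 Col5a1CKO wounds, and in each gene the 3 lowest day 14 wounds were WT.

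The comparison of Col5a1CKO with WT wounds at day 14 asks how loss of the fibril-organising collagen V changes the wound's RNA. Col12a1 was higher in Col5a1CKO wounds and was the only member to pass the test. All 8 members had a positive log2 fold change, from 0.82 to 2.17 with a median of 1.05, where the median of all 14367 genes tested was -0.03. A gene was called where it changed at least 2-fold and edgeR's quasi-likelihood test gave a Benjamini-Hochberg adjusted p below 0.05: 1 of the 8 members was called, and 8.28% of all genes were. In no member did the groups part fully, as they did with Col5a1CKO higher in 2.31% of genes.

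Col12a1, whose product bridges collagen I fibrils, had 532.6, 1183.9, 2059.8, 2220.0, 266.8, 202.3 and 266.8 CPM in WT replicates a to g. It had 6866.0, 4753.8, 7015.4, 2289.3, 6146.7, 2366.5 and 1101.5 CPM in Col5a1CKO replicates a to g. All Col5a1CKO wounds but replicate g stood above every WT wound, and the 3 lowest WT wounds were those of the upper library set. The log2 fold change was 2.17 (standard error 0.63), a 4.49-fold difference (edgeR adjusted p = 0.0411). Within the library sets it was 1.85 (adjusted p = 0.0327) in the lower and 2.92 (0.0388) in the upper set, and 2.21 (0.00158) with the set as a covariate. The call was lost on leaving out any 1 of WT replicates a, b, e, f and g or of Col5a1CKO replicates a, b, c, e and f, with a log2 fold change of 1.98 to 2.27 and an adjusted p of 0.0565 to 0.0839.

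The collagen VI chains had near-equal differences. Col6a1, the alpha 1 chain, ran from 284.6 to 2006.1 CPM in WT (median 682.3) and from 1005.0 to 2928.4 in Col5a1CKO wounds (median 2023.2). Col6a2, the alpha 2 chain, ran from 239.7 to 1879.1 CPM (median 634.8) and from 949.6 to 2469.7 (median 1634.3), and Col6a3, the long alpha 3 chain, from 263.7 to 1643.9 (median 1170.4) and from 983.9 to 3137.4 (median 2367.2). For all 3 chains the lowest values were those of WT replicates e, f and g, and the groups overlapped. Their log2 fold changes were 1.05 (standard error 0.50, adjusted p = 0.189), 0.96 (0.48, 0.205) and 1.15 (0.48, 0.136) in edgeR, none of which passed. That of the reference Col1a1 was 1.13 (0.54, 0.185). With the library set as a covariate all 3 passed, at 1.20 (adjusted p = 0.023), 1.11 (0.033) and 1.26 (0.00498), in a fit that called 12.9% of genes. Within the lower set alone they were 0.62, 0.50 and 0.78, none called, and within the upper set 2.28, 2.24 and 2.17, each called.

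The collagen VIII chains and the other FACIT chains did not pass either. Col8a1, the more abundant collagen VIII chain, had 19.1 to 399.0 CPM in WT (median 115.0) and 61.6 to 460.9 in Col5a1CKO wounds (median 246.0), which differed by 0.82 on the log2 scale (standard error 0.69, edgeR adjusted p = 0.465). Col8a2 had 0.823 to 15.1 CPM (median 9.84) in WT and 5.43 to 44.4 (median 11.8), a log2 fold change of 1.17 (0.73, 0.313). Both were lowest in the 3 WT wounds of the upper set, where Col8a2 was near 1 CPM. Col14a1, the other FACIT chain that coats collagen I fibrils, had 22.9 to 572.7 CPM in WT (median 273.1) and 222.5 to 1839.7 in Col5a1CKO wounds (median 418.6), with a log2 fold change of 1.04 (0.70, 0.351). Col16a1, the chain of collagen XVI, had 144.0 to 575.8 CPM (median 194.8) and 266.7 to 924.1 (median 476.6), with a log2 fold change of 0.89 (0.36, 0.125). In the upper set alone Col8a1 (1.69), Col8a2 (3.46) and Col14a1 (2.65) were also called, which made 7 of 8 members with 3 WT against 2 Col5a1CKO wounds, where 9.23% of all genes were called. Col16a1 stayed uncalled there at 1.17 (0.0674).

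**Figure D2:**
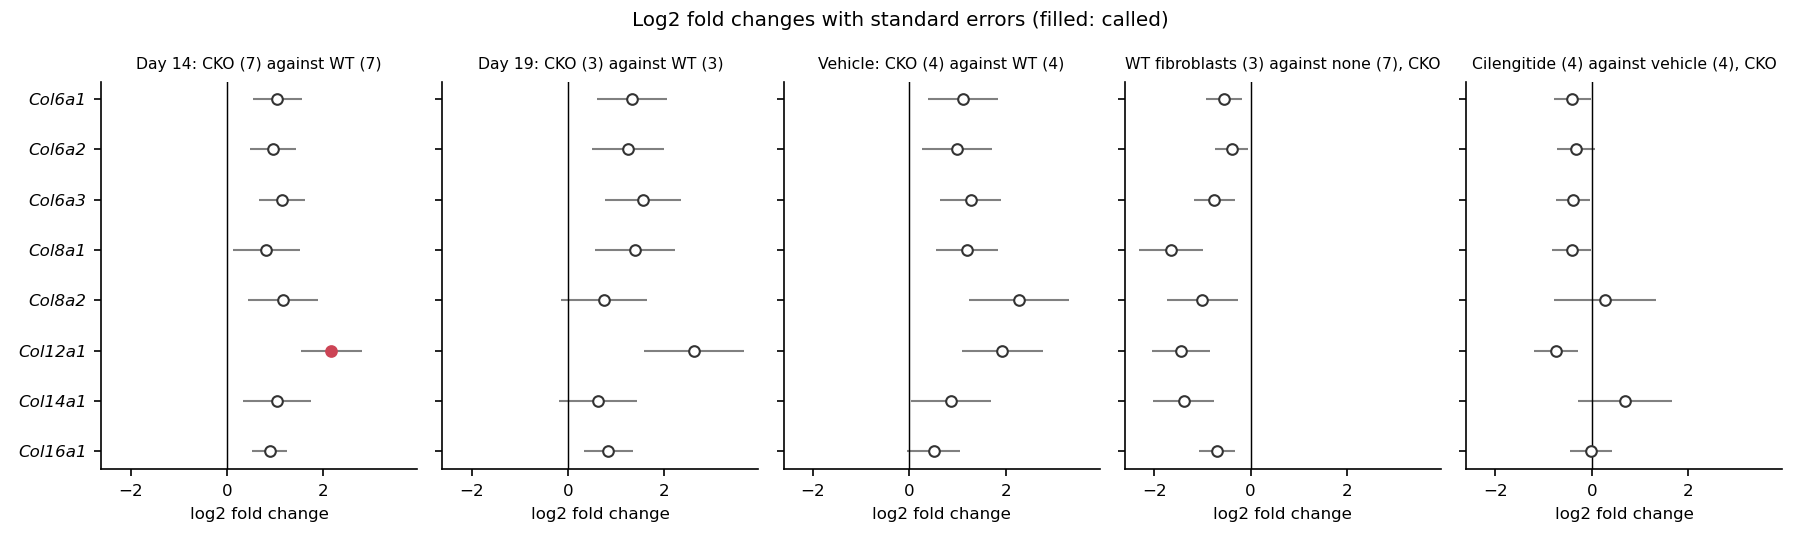
Log2 fold change of each member in the comparisons of groups, with bars for its standard error and filled points for members called by edgeR (2-fold or more, adjusted p below 0.05). All 8 members lay above 0 for Col5a1CKO against WT at day 14, day 19 and with vehicle, and below 0 for wounds with WT fibroblasts against Col5a1CKO.

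At day 19 no member was called for Col5a1CKO against WT, although 5 of 8 had all Col5a1CKO wounds above all WT wounds. The call rule was met by 0.0198% of genes, so that few calls were made in this comparison of 3 wounds with 3, and 16.4% of genes parted with Col5a1CKO higher. The members' log2 fold changes ran from 0.62 to 2.61 with a median of 1.28, against a median of -0.01 over 15135 genes. Without adjustment, 815 higher and 943 lower genes had a p below 0.05 and changed at least 2-fold, with Col12a1 as the only member among them.

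Col12a1 had 1216.9, 222.7 and 3380.1 CPM in the WT wounds and 11566.9, 10354.9 and 6998.1 in the Col5a1CKO wounds. The WT wounds spread widely and none reached the lowest Col5a1CKO wound. Its log2 fold change was 2.61 (standard error 1.04), a 6.09-fold difference with an edgeR adjusted p of 0.2, and DESeq2 called it (2.60, adjusted p = 0.0249). That DESeq2 fit called 684 genes higher and 713 lower of 15135. Col6a1 had 1611.5, 540.5 and 3374.0 CPM in WT and 4926.0, 4803.6 and 3866.7 in Col5a1CKO wounds, and Col6a2 had 1435.9, 459.4 and 3119.4 against 4198.5, 4133.6 and 3294.9. Col6a3 had 1683.9, 540.6 and 3828.0 CPM in WT and 6746.4, 5869.1 and 4915.4 in Col5a1CKO wounds, and Col8a1 had 110.1, 14.3 and 160.9 against 300.4, 263.4 and 171.8. In these 4 chains, too, WT replicate b was the lowest and WT replicate c came near the Col5a1CKO wounds without reaching them. Their log2 fold changes were 1.33, 1.24, 1.56 and 1.39, with edgeR adjusted p values of 0.295, 0.329, 0.265 and 0.325. That of the reference Col1a1 was 1.27 (standard error 1.02, edgeR adjusted p = 0.447). Col8a2 (0.75, standard error 0.89), Col14a1 (0.62, 0.81) and Col16a1 (0.83, 0.51) overlapped between genotypes. The day 19 libraries were all of the upper set; WT replicate a had Y-linked RNA and the other 5 had Xist.

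The size of the genotype effect was not shown to differ between day 19 and day 14. In the interaction test the members' differences ran from -0.46 to 0.56 on the log2 scale, each with an edgeR adjusted p of 1, and that of Col12a1 was 0.42 (standard error 1.14). No gene was called (0%), with 448 genes positive and 490 negative at an unadjusted p under 0.05 and no member among them. DESeq2 called no member in this test.

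Between day 14 and day 19, 2 of the 3 collagen VI chains rose in Col5a1CKO wounds. Col6a2 rose by 1.21 (standard error 0.32, edgeR adjusted p = 0.0469) and Col6a3 by 1.44 (0.37, 0.0426) on the log2 scale, and Col6a1 was close to the threshold at 1.20 (0.35, 0.0598). Here 2 of 8 members were called and 5.72% of all genes were, and 4 members (Col6a1, Col6a2, Col6a3 and Col16a1) had every day 19 wound above every day 14 wound, as 7.74% of genes had. The range of Col6a3 was 4915.4 to 6746.4 CPM at day 19 and 983.9 to 3137.4 at day 14. The reference Col1a1 rose as well, by 1.59 (standard error 0.38, edgeR adjusted p = 0.0359), and was called. Per 100 Col1a1 counts, Col6a2 was lower in every day 19 wound (7.22 to 7.66) than in every day 14 wound (7.67 to 12). Of all 15327 genes, 8961 parted in that direction. Col16a1 differed by 0.99 (0.34, 0.0915) and Col12a1 by 1.12 (0.52, 0.194), whereas Col8a1 (-0.03) and Col14a1 (0.30) lay near 0. Library set moved with day: all day 19 libraries were of the upper set and 5 of 7 day 14 Col5a1CKO libraries of the lower. Within the upper set, with 2 day 14 wounds, no member was called (Col6a2 1.66, adjusted p = 0.112; Col6a3 2.27, 0.0875). The calls were also lost with all groups in 1 fit (0.231 for Col6a2 and 0.152 for Col6a3), and in most fits that left out a wound, which gave adjusted p values of 0.0512 to 0.182 for Col6a2 and 0.0572 to 0.175 for Col6a3 where lost.

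In WT wounds no member was called between the days, where 5.74% of genes were. The log2 fold changes ran from -0.51 for Col8a1 to 1.37 for Col8a2, with Col6a1 at 1.01 (standard error 0.76, edgeR adjusted p = 0.471) and Col16a1 at 1.15 (0.52, 0.209). Within the upper set, which holds WT replicates e to g of day 14, 6 members were called as higher at day 19, in a fit that called 24.3% of genes. Col8a2 was then higher by 4.36 (adjusted p = 0.0134), Col14a1 by 3.62 (0.0302), Col6a3 by 2.94 (0.0285) and Col16a1 by 2.05 (0.0258), and Col8a1 (2.30, 0.073) and Col12a1 (2.90, 0.0572) were not called. The lower set held no day 19 wound to compare. WT replicates e to g of day 14 had Y-linked RNA, as had day 19 WT replicate a, whereas day 19 WT replicates b and c had Xist. Day and sex were thus partly mixed within the upper set.

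Wounds that received WT fibroblasts were compared with Col5a1CKO and with WT wounds of day 14, and these comparisons share the treated wounds. No member was called in either, where 0% of genes were called against Col5a1CKO and 5.84% against WT. Against Col5a1CKO wounds all 8 log2 fold changes were negative, from -1.65 to -0.39 with a median of -0.88 (median of all genes -0.04). Of all genes, 854 were lower and 37 higher at an unadjusted p under 0.05 and at least 2-fold. Col12a1 had 990.7, 2079.7 and 1781.6 CPM in the treated wounds, each below at least 6 of the 7 Col5a1CKO wounds, with a log2 fold change of -1.45 (standard error 0.60, edgeR adjusted p = 0.368). Col8a1 had 42.7, 116.1 and 81.2 CPM and a log2 fold change of -1.65 (0.66, 0.365). These 2 were the members with an unadjusted p under 0.05. All 3 treated wounds were of the upper set, and against the 2 Col5a1CKO wounds of that set the direction of 4 members turned: Col6a1 0.07, Col6a2 0.07, Col6a3 0.09 and Col8a1 0.32, while Col12a1 was -0.05. Against WT wounds the log2 fold changes ran from -0.68 to 0.87, and within the upper set all 8 members were called higher than in WT, in a fit that called 31% of genes. All 3 treated wounds had Xist and the 3 WT wounds of that set had Y-linked RNA, so there the treatment and sex cannot be told apart. Markers moved beside the members against Col5a1CKO wounds: all 7 fibroblast markers (median log2 fold change -1.42) and all 11 matrix partners tested (-1.27) were negative and all 6 keratinocyte markers positive (0.76), none of them called. Lum and Dcn are in both the fibroblast and the matrix partner list. This fit used all 7 Col5a1CKO wounds, which come from both library sets. The part of these markers in the members' values was not tested.

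With vehicle, Col5a1CKO wounds again had positive log2 fold changes over WT in all 8 members, and none was called, where 30.9% of genes were. The changes ran from 0.51 to 2.27 with a median of 1.15, against 0.02 over all 15434 genes, and no member parted the groups with Col5a1CKO higher, as 23.4% of genes did. No member had an unadjusted p under 0.05 in edgeR, and DESeq2 called Col8a2 (2.31, adjusted p = 0.0292) and Col12a1 (1.97, 0.02). That DESeq2 fit called 3185 genes higher and 2083 lower of 15434. Col12a1 had 1854.6, 1921.6, 249.5 and 252.8 CPM in WT replicates 1 to 4 and 6873.8, 4577.7, 3282.8 and 1738.2 in Col5a1CKO replicates 1 to 4, with a log2 fold change of 1.93 (standard error 0.84, edgeR adjusted p = 0.0897). The WT wounds formed a high and a low pair, and Col5a1CKO replicate 4 fell just under the high pair. Col6a1 showed the same WT pairs, at 1860.2 and 1928.6 and at 329.8 and 332.4 CPM, with 3247.5, 3438.8, 1918.9 and 1053.0 CPM in Col5a1CKO wounds. Col8a2, at 6.4, 2.3, 0.856 and 2.0 CPM in WT and 10.5, 40.0, 2.99 and 2.1 in Col5a1CKO wounds, had the largest difference (2.27, standard error 1.04, adjusted p = 0.104). That difference and the one of Col14a1 leaned on Col5a1CKO replicate 2, which had 711.2 CPM of Col14a1 where the other 3 had 57.4 to 244.7; without it Col14a1 turned from 0.87 to -0.30 and Col8a2 went from 2.27 to 0.83. The same library had 0 CPM of Y-linked RNA and 1.01 CPM of Xist, and its part in these values was not tested. Col5a1CKO replicates 1, 3 and 4 had Y-linked RNA, whereas WT replicates 1 and 3 had Xist and WT replicates 2 and 4 Y-linked RNA. Sex was thus partly mixed with genotype in this comparison.

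Cilengitide was given to Col5a1CKO mice to ask whether blocking alpha v integrins alters the wound. No member was called for cilengitide against vehicle in Col5a1CKO wounds, where 13.1% of genes were, nor at an unadjusted p under 0.05. Col12a1 had 1646.8, 2585.6, 2281.7 and 3434.4 CPM with cilengitide, a log2 fold change of -0.74 against vehicle (standard error 0.45, edgeR adjusted p = 0.255). The collagen VI chains lay at -0.40, -0.33 and -0.39, Col8a1 at -0.42 and Col16a1 at -0.02. Col14a1 (115.4, 704.9, 791.0 and 132.8 CPM) and Col8a2 (4.49, 14.6, 42.9 and 5.49 CPM) were each high in replicates 2 and 3 and low in replicates 1 and 4. The high pair had Xist and the low pair Y-linked RNA, and the part of sex in these values was not tested. As no Col5a1CKO wound with vehicle had Xist at such a level, sex was also partly mixed with treatment. In Col14a1 and Col8a2 the pairs stood further apart than the groups, with log2 fold changes of 0.69 (0.97) and 0.27 (1.06). Against WT with vehicle the cilengitide wounds had positive values in all 8 members, 0.51 to 2.55, with none called where 8.58% of genes were. The comparisons of cilengitide with vehicle share their vehicle wounds with the genotype comparison above. Marker genes of other cells moved with these groups: the summed level of 6 keratinocyte markers was 62928.0 to 101006.8 CPM in WT with vehicle, 63.1 to 12234.6 in Col5a1CKO with vehicle and 34615.2 to 70455.1 with cilengitide. The part of such cells in the collagen values was not tested.

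The members were next set against Col1a1 of the same wound, which does not depend on the scaling of a library, as counts per 100 Col1a1 counts and with no test. Of the 8, Col12a1 stood apart. It had 6.88 to 16.3 per 100 in day 14 WT wounds, which overlapped with 10.6 to 49.2 for Col5a1CKO. At day 19 it had 6.51, 4.58 and 7.92 in WT and 19.9, 18.6 and 16.3 in Col5a1CKO wounds, and with vehicle 12, 13.2, 7.8 and 9.06 in WT and 29.6, 17.3, 20.8 and 28.7 in Col5a1CKO wounds. Every Col5a1CKO wound was above every WT wound in these 2 comparisons, as in 0.548% of genes at day 19 and 3.46% with vehicle (0.104% at day 14). With cilengitide Col12a1 had 11.1, 13.7, 11.7 and 22.2, and with WT fibroblasts 7.4, 15.1 and 10.3. Col16a1 was lower in Col5a1CKO wounds at day 19, with 1.94 to 2.25 against 2.46 to 6.48 in WT wounds, and with vehicle, with 2.57 to 3.38 against 3.47 to 7.2. At day 14 its ranges overlapped, at 2.25 to 4.7 and 2.53 to 7.85. Col14a1 was lower at day 19 as well, at 1.31 to 1.59 against 1.65 to 2.82, and overlapped at day 14 and with vehicle. Per Col1a1 count 2 of the 8 members and 43.6% of genes parted with Col5a1CKO lower at day 19. With vehicle 1 member and 8.75% of genes did. Col6a1 had 10.4 to 13.9 per 100 in day 14 WT wounds, a 1.33-fold spread where its CPM spread 7.05-fold, and 8.28 to 14.2 in those of Col5a1CKO. It was lower with WT fibroblasts, at 8.71 to 9.91, than in every WT wound, as 17.9% of genes were, and lower with cilengitide, at 9.54 to 12, than in every Col5a1CKO wound with vehicle, at 12.2 to 17.4, as 4.05% were.

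**Figure D3:**
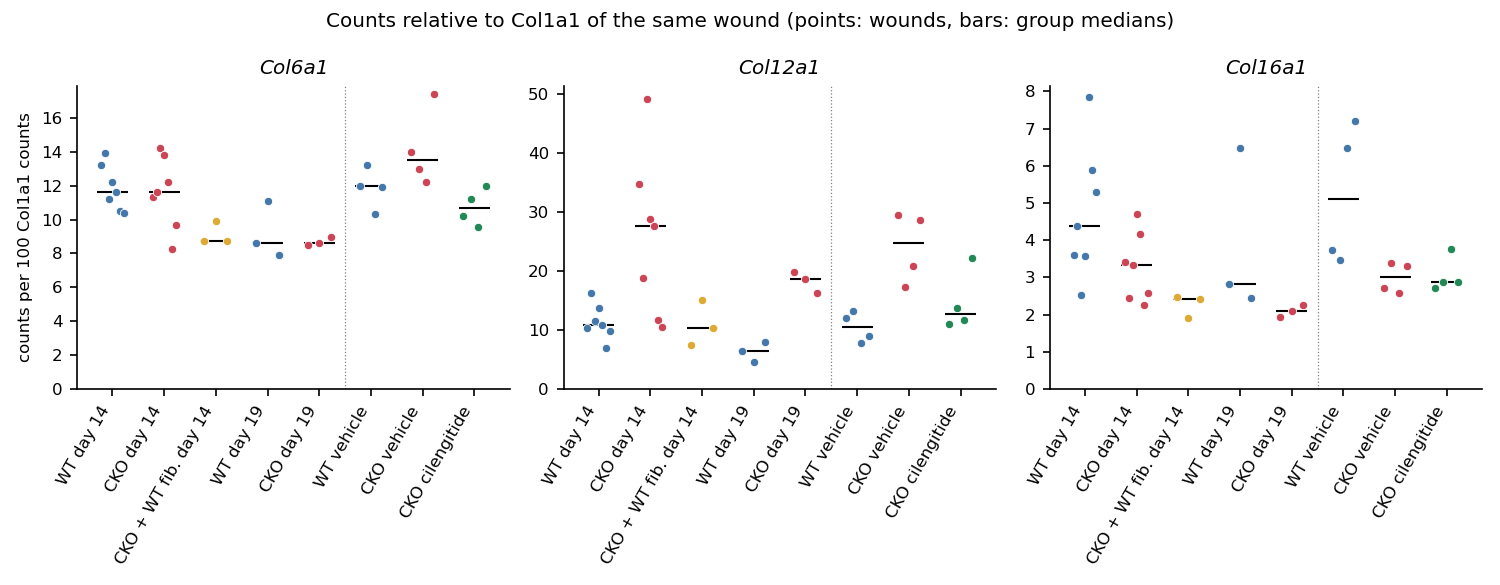
Counts of Col6a1, Col12a1 and Col16a1 per 100 Col1a1 counts of the same wound, on linear axes from 0, with points for wounds, bars for group medians and a dotted line between the tables. Col12a1 did not overlap between genotypes at day 19 (16.3 to 19.9 against 4.58 to 7.92) or with vehicle (17.3 to 29.6 against 7.8 to 13.2), and Col6a1 ran from 8.28 to 14.2 in the day 14 WT and Col5a1CKO wounds of the first table and up to 17.4 with vehicle.

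Ratios between partner chains in a wound were compared by 2-sided exact permutation tests, 36 in all over 4 ratios and 9 comparisons. No ratio passed after Benjamini-Hochberg adjustment over the 36. Col6a2 to Col6a1, partners in every collagen VI molecule, lay at 0.893 to 1.11 in day 14 WT wounds and 0.856 to 1.03 in those of Col5a1CKO, per kb of each transcript. The log2 difference was -0.10 (exact permutation p = 0.114, adjusted 0.382). In the cilengitide table, as counts, the ratio was 0.99 to 1.07 in WT with vehicle, 0.905 to 0.929 in Col5a1CKO with vehicle and 0.955 to 0.98 with cilengitide, and no group overlapped another. Each of the 3 differences (-0.14, 0.07 and -0.07 on the log2 scale) had an exact permutation p of 0.0286, the lowest possible with 4 wounds a group, or 0.257 when adjusted. Col6a3 to Col6a1 was 0.367 to 0.416 in day 19 WT wounds and 0.448 to 0.502 in those of Col5a1CKO, a log2 difference of 0.28 (exact permutation p = 0.1, which is the lowest value possible with 3 wounds a group, adjusted 0.382).

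The ratio of Col12a1 to Col14a1 sets side by side the 2 FACIT chains that coat collagen I fibrils. Per kb it was 1.28, 1.54 and 2.15 in order of size in day 19 WT wounds and 6.48, 6.67 and 8.38 in Col5a1CKO wounds, a log2 difference of 2.14 or 4.41-fold (exact permutation p = 0.1, adjusted 0.382). At day 14 the ranges overlapped, 0.514 to 6.44 against 1.43 to 11.6 (0.99, exact permutation p = 0.103, adjusted 0.382). With vehicle they overlapped as well, at 1.55 to 12.5 and 6.44 to 57.1 as counts (2.17, exact permutation p = 0.0857). Cilengitide differed from vehicle by -1.54 (exact permutation p = 0.171). Within collagen VIII, Col8a2 to Col8a1 was 0.0307 to 0.113 per kb in WT wounds at day 14 and 0.138 to 0.415 at day 19, a log2 difference of 2.03 (exact permutation p = 0.0167, adjusted 0.257).

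**Figure D4:**
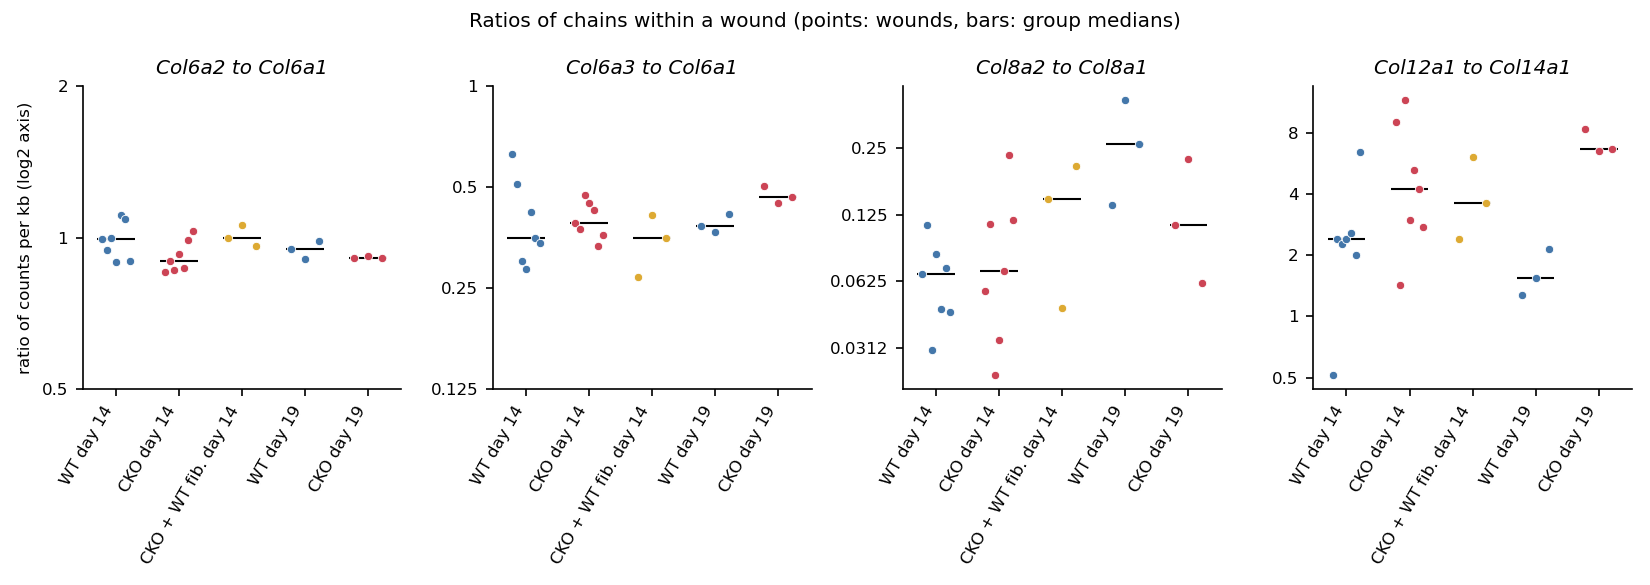
Ratios between chains, as counts per kb on log2 axes, in every wound of day 14 and 19, with points for wounds and bars for group medians. Col12a1 to Col14a1 was 6.48 to 8.38 in day 19 Col5a1CKO wounds and 1.28 to 2.15 in WT wounds, and Col6a2 to Col6a1 stayed between 0.856 and 1.11.

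The genes whose level varied most like each member were found from the correlation of log2 CPM over the 23 libraries of the day 14 and 19 table, after each group's mean was removed, among 12070 genes. Col6a1 was closest to Col6a2 (Pearson r = 0.99, and 1.0 over the 12 cilengitide libraries) and to Col1a2 (0.99 and 0.97), the partner chain of Col1a1, and Col6a2 in turn to Col6a1 and to Leprel2 (0.99 and 0.97), a collagen prolyl hydroxylase. Col6a3 was closest to Col5a2 (0.98 and 0.97), a chain of collagen V, and to Sulf1 (0.98 and 0.83), a heparan sulfatase. Col12a1 was closest to Wisp1 (0.97 and 0.96), a matricellular protein, and to Rrbp1 (0.96 and 0.91), a protein of the rough endoplasmic reticulum. The nearest genes to Col8a1 were Fndc3b (0.97 and 0.80) and Sulf1 (0.96 and 0.80), and to Col8a2 they were Fmod (0.93 and 0.73), a proteoglycan of collagen fibrils, and Cpxm2 (0.92 and 0.89). For Col14a1 they were Pamr1 (0.97 and 0.93) and Galntl1 (0.97 and 0.98), and for Col16a1 Mxra8 (0.92 and 0.91) and Gjc1 (0.92 and 0.75). These values are descriptions, since the libraries of a table share the gap between library sets and the cell make-up of the wound.

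Over all genes, the shares called in the comparisons that follow were 8.28% at day 14, 0.0198% at day 19, 30.9% with vehicle and 13.1% for cilengitide against vehicle. Of the other collagen VI chains and FACIT collagens, 6 of 9 listed genes were tested at day 14 and 1 was called, with a median log2 fold change of 1.47. That gene was Col6a4, a further collagen VI chain (3.35, standard error 0.97, edgeR adjusted p = 0.0403). With vehicle, 8 were tested and 2 were called higher, the FACIT chains Col19a1 (3.77, adjusted p = 0.00523) and Col22a1 (4.11, 0.0149), and none was called at day 19. Of the fibrillar collagens 1 of 10 tested was called at day 14, Col5a3, an alternative chain of collagen V (1.77, 0.00691), and 3 with vehicle, with none at day 19 or for WT fibroblasts against Col5a1CKO.

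Of 10 cell surface receptors for these collagens 1 was called at day 14. Antxr2, a receptor for collagen VI, rose by 1.38 (standard error 0.35, edgeR adjusted p = 0.0249). With vehicle 5 were called higher and 1 lower, among them Antxr2 (3.41, 0.00255), Itgb1, the shared beta 1 integrin chain (1.89, 0.00417), and Ddr1, a collagen receptor kinase of epithelia (-3.15, 0.000839). With cilengitide against vehicle Ddr1 was higher (2.26, 0.00665) and Itga1, a collagen-binding integrin chain (-1.60, 0.024), and Antxr2 (-1.96, 0.0305) were lower, and no receptor was called at day 19. Of 11 matrix partners tested 3 were called at day 14, all higher: Tnc, tenascin C, a glycoprotein of wound matrix (3.01, 0.0135), Fn1, fibronectin (1.50, 0.0432), and Bgn, biglycan, which binds collagen VI (1.52, 0.049). With vehicle 4 were called higher, Fn1 (1.66, 0.00579), Dcn, decorin (2.62, 0.00646), and Tnc (3.21, 0.0198) among them, and none was called at day 19.

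Marker genes of cell types moved with genotype beside the collagens. At day 14, 2 of 7 fibroblast markers were called higher in Col5a1CKO wounds, Pdgfra (2.36, edgeR adjusted p = 0.0206) and Thy1 (1.14, 0.0312), as were 4 of 6 leukocyte, 4 of 6 endothelial and 3 of 6 pericyte and smooth muscle markers. None of 6 keratinocyte markers was called, with a median log2 fold change of -1.84 and a summed level of 32174.4 to 159108.3 CPM in WT against 34.4 to 61675.1 in Col5a1CKO wounds. With vehicle the calls were 3 of 7 fibroblast, 6 of 6 leukocyte and 2 of 6 endothelial markers higher, 3 of 6 keratinocyte markers lower, and 2 of 6 pericyte and smooth muscle markers higher and 1 lower. Dcn, also counted above as a matrix partner, was among these fibroblast markers. With cilengitide against vehicle 6 of 6 leukocyte markers were called lower and 2 of 6 keratinocyte markers higher, and of pericyte and smooth muscle markers 1 was higher and 1 lower. At day 19 the only call in these lists was 1 higher pericyte and smooth muscle marker, Cnn1 (3.97, edgeR adjusted p = 0.0355). Their part in the members' values was not tested.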

How the data were processed

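RNA of 35 mouse skin wounds was analysed. The authors deposited raw counts per RefSeq transcript, with lengths, for day 14 and 19 (23 libraries), and raw counts per gene for the cilengitide wounds (12). Their methods give stranded libraries, 50 bp single-end reads, alignment by Hisat2 to NCBI37/mm9 with up to 2 mismatches and SeqMonk counts on RefSeq exons. Whether this covers the cilengitide libraries, and whether counting used strand, is not given in the sources used here. Rows naming no gene (0.0492% and 5.9e-05% of counts) were left out. For each symbol the transcript row with most counts was kept. Col6a3 had 2 rows, which differed by at most 3.4% in a library. Groups follow titles and column headers, and the labels of the 3 day 19 Col5a1CKO samples also name WT fibroblasts in another field.

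edgeR 4.0.16 under R 4.3.3 was run on each pair of groups with TMM factors, the filterByExpr filter (minimum count 10) and a robust quasi-likelihood fit. Calls needed a Benjamini-Hochberg adjusted p under 0.05 over all genes tested and a 2-fold change, and the standard error is the absolute log2 fold change over the square root of F. Chain ratios were compared by 2-sided exact permutation tests (scipy 1.17.1, numpy 2.4.6, pandas 2.3.3, Python 3.11.15), with 0.5 added to counts where no length is given. RPKM was computed from TMM-scaled CPM and the deposited lengths. The fits were tested on simulated data. Figures were drawn with matplotlib 3.10.9.

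Library sets are the libraries on either side of the largest gap in the level of the 10% of genes richest in GC relative to the 10% poorest (mean of 5 CPM or more). No libraries were duplicates. The promoter window of 1 member is not reported here. The members and lists were chosen with earlier results of these data known. All 8 members were tested in each comparison, though not every one is named in each, and Col5a1 and Col1a1 served as references. Named besides are up to 3 called genes of a list by smallest adjusted p, and for each member its 2 most like genes above that mean. Adipocyte markers gave no call in any comparison, skeletal muscle markers none, and Schwann cell markers 1 in each of the vehicle and cilengitide comparisons with WT. Alternatives were DESeq2 1.42.0, its size factors in edgeR, every gene with at least 1 count, all groups in 1 fit, 3-fold, the replicate letter as a block, the library set as a covariate or 1 set alone, the sum of RefSeq rows, and leaving out each wound. The fit of the same replicates with no block was added after seeing the data.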

Additional observations from a re-analysis of the deposited data

Results flagged for a closer look

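In 2 of 40 tests, each of 1 gene in 1 group of wounds, 1 wound stood far from the rest of its group by Dixon's test. Chance alone would flag about 1 of 20 independent tests, and these tests share wounds between genes. In the cilengitide group the lowest Col8a1 value was that of replicate 1, at 97.8 CPM, where replicates 2 to 4 lay between 161.5 and 172.4 CPM. In day 14 Col5a1CKO wounds the highest Col14a1 value was that of replicate b, at 1839.7 CPM, where the other 6 lay between 222.5 and 649.8 CPM.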

How the results depend on the processing

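Of 1160 log2 fold changes of members under alternatives, 1039 kept their direction and side of the threshold, 40 reversed, 49 became called and 32 lost the call. Of 120 log2 ratios, 88 kept both, 4 passed an unadjusted p of 0.05 and 28 no longer did, and no adjusted p passed under any of 39 alternatives. Members called at day 14 numbered 4 with the library set as a covariate and 7 in the upper set, against 1, and 0 to 1 with a wound left out. DESeq2 called 1 member at day 19, 4 in Col5a1CKO wounds for day 19 against day 14, 2 with vehicle and 2 for cilengitide against WT. Over all genes DESeq2 called 684 higher and 713 lower of 15135 at day 19, and 506 and 1146 of 15327 between days in Col5a1CKO wounds. It called 3185 and 2083 of 15434 with vehicle, and 1448 and 718 of 15514 for cilengitide against WT. In Col5a1CKO wounds day 19 against day 14 gave 1 with every gene of at least 1 count, 0 with all groups in 1 fit, 1 with the covariate, 0 in the upper set, 0 at 3-fold and 0 to 3 with a wound left out. With all groups in 1 fit, 1 was called with vehicle, where 3275 genes were called higher and 2245 lower of 15915. For WT fibroblasts against Col5a1CKO the replicate block gave 2 calls and the same replicates with no block 3. Over all genes the block called 1415 higher and 1125 lower of 15162, and the fit without it 1704 and 1412. Against WT, the same replicates gave 1, the covariate 8 and the upper set 8. In that order these fits called 1890 genes higher and 1937 lower of 14606, 1535 and 1021 of 15317, and 2999 and 1691 of 15132. In WT wounds, day 19 against day 14 gave 7 with the covariate and 6 in the upper set. The covariate fit called 830 genes higher and 1130 lower of 15180, and the upper set 2133 and 1521 of 15059. Values that turned with the covariate and in the upper set were, for WT fibroblasts against Col5a1CKO, Col6a1 (0.01 and 0.07), Col6a2 (0.01 and 0.07), Col6a3 (0.03 and 0.09) and Col8a1 (0.27 and 0.32). Against WT they were Col8a1 (2.03 and 2.01) and Col14a1 (2.52 and 2.50), and for day 19 against day 14 Col8a1 in WT (2.29 and 2.30) and in Col5a1CKO wounds (1.87 and 1.93). The replicate block turned Col6a3 (-0.22) and Col8a2 (-0.61) for WT fibroblasts against WT, as did the same replicates without it (-0.18 and -0.40). Col8a1 in Col5a1CKO wounds went to 0.00 with DESeq2 and with its size factors, and Col16a1 under cilengitide against vehicle to 0.02 with every gene of at least 1 count. Leaving out a wound gave, for WT fibroblasts against WT, Col8a2 -0.41 to 0.62 and Col14a1 -0.43 to 0.08, for WT day 19 against day 14 Col8a1 -1.08 to 0.10 and Col12a1 -0.34 to 1.40, for Col5a1CKO wounds Col8a1 -0.20 to 0.19, with vehicle Col14a1 -0.30 to 1.25, and for cilengitide against vehicle Col8a2 -0.76 to 1.69 and Col16a1 -0.29 to 0.35. The cause was not tested, beyond fewer wounds in the sets and in the fits with a wound left out. Same-letter correlations ran from -0.46 to 0.57 at day 14 (mean 0.19) and were all negative at day 19. For WT fibroblasts they ran from -0.19 to 0.41 against Col5a1CKO and from 0.02 to 0.39 against WT. These values do not settle whether letters pair the wounds. The replicate block kept 1 call at day 14. With 3 wounds a group the smallest exact p is 0.1.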
